A study of Mus musculus with 2 samples.

Results

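Accessible chromatin was examined at 9 genes that make, break down and regulate polyamines: Odc1, Amd1, Srm, Sms, Sat1, Oaz1, Oaz2, Azin1 and Azin2, of 21938 protein-coding genes of the GENCODE M21 annotation. The family was selected on the number of distal regions at Odc1 and Azin1 in these same data, so those counts are given as a description and nothing is read from their size. For each gene, peaks within 500 bp of any annotated start were taken as promoter peaks. Regions over 1000 bp from any start, and within 100 kb of a start of the gene as the nearest protein-coding start, were taken as its distal regions. The assay was DNase-seq, in which the enzyme DNase I cuts DNA that is not covered by nucleosomes, so a tall peak marks open chromatin. The tissue was urinary bladder, taken from females aged 4 days of the strain B6CASTF1/J, whose parents are C57BL/6J and CAST/EiJ. No treatment is labelled. The samples form 1 group of 2 biological replicates, with a female numbered for each but a donor identifier in common, so the spread between them may be partly technical, and no groups could be compared.

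Polyamines are small, positively charged molecules that bind nucleic acids and are needed by dividing cells. Odc1 (ornithine decarboxylase) makes putrescine, Amd1 (S-adenosylmethionine decarboxylase) makes the aminopropyl donor, and Srm and Sms use that donor to make spermidine and spermine. Sat1 acetylates spermidine and spermine so that they can be oxidized or exported. The antizymes Oaz1 and Oaz2 bind ornithine decarboxylase and send it to the proteasome without ubiquitin, and the antizyme inhibitors Azin1 and Azin2 resemble the enzyme, bind the antizymes and free it.

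Sequences are shown first for the members on which the results turn, so that the open stretches can be read beside their heights. The promoters of Amd1, Oaz2 and Odc1 were the tallest of the 6 members with an entry in the RefSeq promoter table, together with Odc1 as the leading member. Each runs 5′ to 3′ on the strand of its gene, from the start of the table's window to the base before the most upstream annotated start in it. Capitals mark GC boxes (GGGCGG or its reverse complement, the site of Sp factors). All sequences are the C57BL/6J reference of build GRCm38.p6, and alleles of the CAST/EiJ parent were not analysed here.
Amd1 upstream, chr10:40302189-40302438, minus strand: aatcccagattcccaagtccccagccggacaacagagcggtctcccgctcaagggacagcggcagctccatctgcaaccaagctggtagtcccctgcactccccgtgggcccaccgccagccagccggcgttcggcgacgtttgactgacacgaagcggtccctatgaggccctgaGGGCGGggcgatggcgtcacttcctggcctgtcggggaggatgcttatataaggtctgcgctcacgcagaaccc
Oaz2 upstream, chr9:65676298-65676547, plus strand: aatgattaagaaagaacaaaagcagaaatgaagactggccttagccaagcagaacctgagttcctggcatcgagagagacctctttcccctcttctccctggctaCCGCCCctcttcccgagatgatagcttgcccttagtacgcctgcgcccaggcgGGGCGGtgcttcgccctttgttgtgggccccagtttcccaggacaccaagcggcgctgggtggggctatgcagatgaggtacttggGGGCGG
Odc1 upstream, chr12:17544623-17544793, plus strand: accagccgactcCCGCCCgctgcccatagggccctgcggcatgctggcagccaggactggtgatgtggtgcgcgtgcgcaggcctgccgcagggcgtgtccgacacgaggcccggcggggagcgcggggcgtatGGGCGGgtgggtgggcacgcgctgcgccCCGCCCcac

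Next come the tallest shared distal regions of Odc1 and Azin1, from the genome of the same build on the plus strand. The first lies upstream of Odc1, at -34.5 kb from its start, and its capitals mark an AP-1 motif (TGANTCA). The second lies 45.4 kb from the start of Azin1 on the side of its 3′ end, and its capitals mark 3 GC boxes. The last pair lies just 3′ of Odc1 and was chosen after its heights were seen. Its first sequence held none of the motifs searched and its second held an E-box (CACGTG, the site of Myc with Max), in capitals. The motifs searched, all named further on, did not include that of the factor CTCF.
Odc1 distal, chr12:17510201-17510480: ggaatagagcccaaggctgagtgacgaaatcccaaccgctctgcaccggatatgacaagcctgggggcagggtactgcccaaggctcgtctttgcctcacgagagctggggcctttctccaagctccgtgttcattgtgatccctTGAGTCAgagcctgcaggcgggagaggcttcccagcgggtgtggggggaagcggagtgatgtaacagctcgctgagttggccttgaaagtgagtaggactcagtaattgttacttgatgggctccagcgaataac
Azin1 distal, chr15:38473801-38473980: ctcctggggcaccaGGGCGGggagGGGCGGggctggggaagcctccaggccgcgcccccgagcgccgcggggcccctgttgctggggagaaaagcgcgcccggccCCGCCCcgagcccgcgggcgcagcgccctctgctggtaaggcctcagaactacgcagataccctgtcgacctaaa
Odc1 downstream 1, chr12:17554241-17554400: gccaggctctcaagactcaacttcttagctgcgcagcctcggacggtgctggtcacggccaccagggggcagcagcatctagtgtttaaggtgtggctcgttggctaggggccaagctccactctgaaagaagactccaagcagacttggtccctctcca
Odc1 downstream 2, chr12:17556861-17557020: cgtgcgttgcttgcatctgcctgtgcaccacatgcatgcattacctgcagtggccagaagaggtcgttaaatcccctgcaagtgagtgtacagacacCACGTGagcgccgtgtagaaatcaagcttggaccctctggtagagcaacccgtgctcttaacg

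The looser of 2 deposited peak lists was used, with 96518 peaks in replicate 1 and 122870 in replicate 2. Heights counted events, as all of them (100%) were whole numbers of steps within a tolerance of 0.02 steps, where a step was 0.00466 in replicate 1 and 0.00417 in replicate 2. Over 53490 regions found in both replicates, heights in replicate 2 lay at a median of -0.28 on the log2 scale relative to replicate 1 (SD 0.40). Promoter peaks of tissue markers were present in both replicates at 7 of 8 smooth muscle genes, 5 of 6 fibroblast genes and 5 of 10 urothelial genes. Over all protein-coding genes the share was 62.3%. Among urothelial markers Upk1a and Trp63 had a promoter peak in neither replicate, and Upk2, Krt5 and Foxa1 had one in a single replicate. Promoter peaks were absent in both replicates from the 4 leukocyte, 4 nerve and glia and 3 liver markers, and present in both at 2 of 4 endothelial markers and at 1 of 3 striated muscle markers (Ckm, 0.992 and 0.675). In a whole tissue, a taller peak in each cell and a peak in more of the cells cannot be told apart.

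A promoter peak was present in both replicates at all 9 polyamine genes, where 62.3% of all protein-coding genes did. All 9 also had one in both of the stricter lists, against 55% of all genes. All 9 were tall in both replicates, against 59.8%, where tall means at or above the low point in the distribution of all heights, 0.386 in replicate 1 and 0.459 in replicate 2. Ranked by the mean of the replicates among the 13670 genes open in both, 6 of the 9 stood at the 85.6th percentile or above. These shares describe 9 chosen genes and are not a test.

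Of the enzymes that build polyamines, Amd1 (chr10:40287458-40302186, minus strand) had the tallest promoter peak of the family. Its height was 8.87 in replicate 1 and 6.59 in replicate 2 (mean 7.73 ± 1.61, SD, n = 2), or 1905 and 1580 steps, at the 99.5th percentile of all open promoters. Both of its values lay above every value of the other 8 genes. A smaller peak lay 545 to 580.5 bp inside Amd1, with heights of 0.680 and 0.375. Every 31-base stretch of the Amd1 promoter peak occurred once in the genome (100%), whereas 73.7% of those in the Amd1 gene did. Amd2, a near-identical copy of Amd1, had no promoter peak. The uniqueness of the sequence at Amd2 was not measured, so its lack of a peak was not checked in this way.

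Odc1 (chr12:17544794-17551505, plus strand), the first and highly regulated enzyme of the pathway, had a single promoter peak, of 380 bp in replicate 1 and 340 bp in replicate 2, centred 17 bp inside the gene. Its height was 5.19 (95% exact Poisson interval 4.89 to 5.50) and 4.00 (3.75 to 4.26), with a mean of 4.59 ± 0.841 (SD, n = 2) at the 88.2nd percentile. The Odc1 peak in replicate 1 thus lay above the counting interval of replicate 2, in the same direction as most promoters. Srm (chr4:148591503-148594993, plus strand), the spermidine synthase gene, measured 5.14 and 3.66 (4.40 ± 1.05, SD, n = 2), which overlapped the values of Odc1.

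Sms (chrX:157443855-157492287, minus strand), the spermine synthase gene, had the lowest promoter of the family, at 0.740 and 0.475 (0.608 ± 0.187, SD, n = 2). That is 159 and 114 steps, and the 7.72th percentile of all open promoters. Its value in replicate 2 was just above the low point of 0.459. Along the first 1000 bp of Sms lay 2 further peaks in each replicate, of 0.405 and 0.349 in replicate 1 and 0.367 and 0.321 in replicate 2. Both Sms and Sat1 are X-linked, and the 445 open promoters of X had median heights of 1.25 and 1.00, against 2.64 and 1.92 on the autosomes. Among X-linked promoters Sms stood at the 21.6th percentile and Sat1 at the 82.2nd, and the part of X linkage in their heights was not tested.

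Sat1 (chrX:155213132-155216449, minus strand), the gene of the acetylating enzyme, had a promoter height of 2.01 and 1.85 (1.93 ± 0.113, SD, n = 2), the 43.3rd percentile. In height as deposited, its replicates were the closest of the 9 genes. After centring on the median over shared regions its log2 ratio was 0.16, and Oaz2, at -0.08, was the closest. A lower peak 388 to 461.5 bp inside Sat1 measured 0.531 and 0.459.

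The antizyme genes had similar promoters. Oaz1 (chr10:80826656-80829290, plus strand) measured 5.04 and 3.63 (4.33 ± 0.995, SD, n = 2), and Oaz2 (chr9:65668001-65690300, plus strand) measured 5.55 and 4.33 (4.94 ± 0.865, SD, n = 2). Their values overlapped. Oaz1 had a further peak at an exon, 315 to 356.5 bp inside the gene, of 1.16 and 1.02. The Oaz2 peak lay 8520 to 8530 bp inside the gene as annotated from its most upstream start, so the open promoter was that of an internal start.

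Of the antizyme inhibitor genes, Azin1 (chr15:38487427-38519266, minus strand) had the taller promoter, at 6.16 and 5.44 (5.80 ± 0.509, SD, n = 2), the 96.3rd percentile and second in the family. A second tall peak 905 to 925 bp inside Azin1 measured 4.52 and 3.16. The promoter window of Azin1 is shared with Gm49077, an antisense gene that starts 383 bp away, and the peak cannot be divided between them. No other member shared its window. Azin2 (chr4:128930233-128962442, minus strand) measured 4.17 and 2.72 (3.45 ± 1.02, SD, n = 2), the 73.4th percentile, and both of its values lay below both of those of Azin1.

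**Figure D1:**
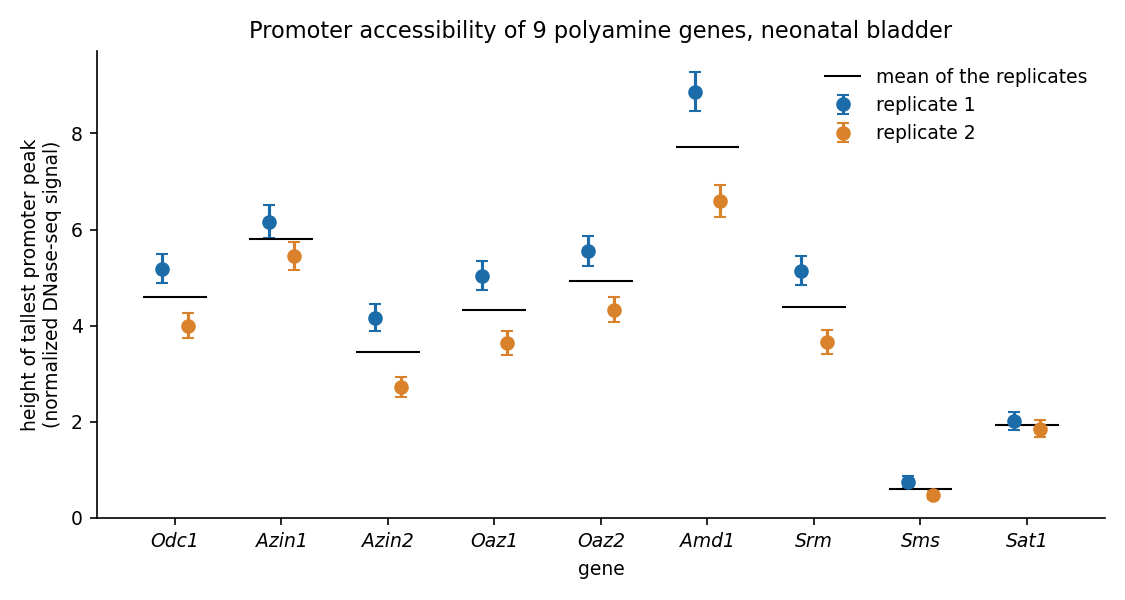
Height of the tallest promoter peak (normalized DNase-seq signal, linear axis from 0) of the 9 genes in each replicate, with 95% exact Poisson intervals of the counted steps as bars and the mean of the replicates as a line. Amd1 is highest at 8.87 and 6.59, Sms lowest at 0.740 and 0.475, and replicate 2 lies below replicate 1 at all 9 genes.

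In both replicates the order from highest to lowest was Amd1, Azin1, Oaz2, Odc1, Srm, Oaz1, Azin2, Sat1 and Sms. Neighbours in that order had no overlap of their values at 3 places: between Amd1 and Azin1, between Azin2 and Sat1, and between Sat1 and Sms. From Azin1 down to Azin2 each gene overlapped the next. Values of both replicates were pooled for this, so the offset that the replicates have in common was not removed. All 9 were lower in replicate 2, as were 93.1% of all open promoters, with log2 ratios from -0.64 (Sms) to -0.12 (Sat1) around a median over all promoters of -0.41 (SD 0.27).

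Footprints are short stretches within a peak that are cut less than their surroundings, which a bound protein can leave. All 9 promoter peaks held a footprint in both replicates, where 95.8% of open promoters did, so the call set the family little apart. Counts of footprints were not scaled to peak width. Odc1, with the widest of these peaks in replicate 1 (380 bp), held 9 there, the most of the family, and 8 in replicate 2, as many as Oaz1. Of the 8 in the part of the peak common to both replicates in replicate 1, 7 overlapped one in replicate 2 (87.5%). Over the genome 38.9% of the footprints of replicate 1 overlapped one of replicate 2. Srm held the fewest in replicate 1, with 2, and had 3 in replicate 2. Oaz1 held 7 and 8, Azin1 held 6 and 6, and the remaining genes held 3 to 5.

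The letters of the promoters bore on some of these footprints. The RefSeq table (build GRCm38.p6, 250 bases before to 50 after a start) had 7 promoters of 6 members: Odc1, Amd1, Oaz1, Oaz2, Sat1 and Sms. Searched on both strands, the GC box GGGCGG matched in 5 of these 7 promoters, against 35.7% of all 32851 promoters in the table. In these windows it matched at Sms at the second start only and not at Oaz1. In the part of the promoter peak common to both replicates, however, Sms and Oaz1 each held 1 GC box. Odc1 and Oaz2 had 4 matches each, and in both genes 3 of them touched a footprint in each replicate. The GC boxes of Odc1 that lay wholly inside footprints of both replicates began at -88 and -15 from its RefSeq start, the latter past the printed stretch. The single GC box of Amd1, at -74, also lay wholly inside footprints of both replicates. At Oaz1 the TATA motif TATAAA at -3 lay inside footprints of both replicates, but inside a promoter peak only in replicate 1.

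Other motifs were sparser. The E-box CACGTG, found in 7.15% of the table's promoters, matched only at Sms among the 6 genes, outside any footprint and outside the promoter peak of either replicate. The ETS motif CCGGAAG (8.86% of promoters) matched at Sat1 and Sms, and CCAAT of NF-Y (37.4%) at Oaz1 and Sms. No window of these 6 genes matched the CRE TGACGTCA (1.79%), NRF1 GCGCATGCG (1.75%), AP-1 TGANTCA (7.81%), TEAD GGAATG (14.7%) or NFI motif TTGGCA (14.1%). Oaz1 was the only one of the 6 with TATAAA (13.6%). The promoters of Azin1, Azin2 and Srm had no entry and were not searched. The ETS match at the second Sms start overlaps a GC box there. A match is a run of letters, not a measured binding site.

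Distal regions were distributed very unevenly over the family, which is how it was chosen. The 9 genes had 196 distal regions, of which 129 were found in both replicates. Odc1 and Azin1 held 121 of these and the other 7 genes held 8. At least 1 shared distal region was present at 6 of the 9 genes, against 43.6% of all genes, and at least 1 that was tall in both replicates at 6 of 9, against 37.7%. Odc1 and Azin1, chosen for their distal regions, are in both counts, with Azin2, Oaz1, Oaz2 and Sms. The shares are therefore no comparison with the genome. Odc1, with 71 shared regions, had the most of all 21938 genes, followed by Zfp618 with 70, and Azin1 with 50 was among 8 genes, or 0.0365%, that had at least as many. The median gene had 0 and the 99th percentile was 12. When heights are considered the picture is different: 3 regions of Odc1 and 10 of Azin1 were tall in both replicates, and 1126 genes had more such regions than Odc1 and 46 more than Azin1.

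**Figure D2:**
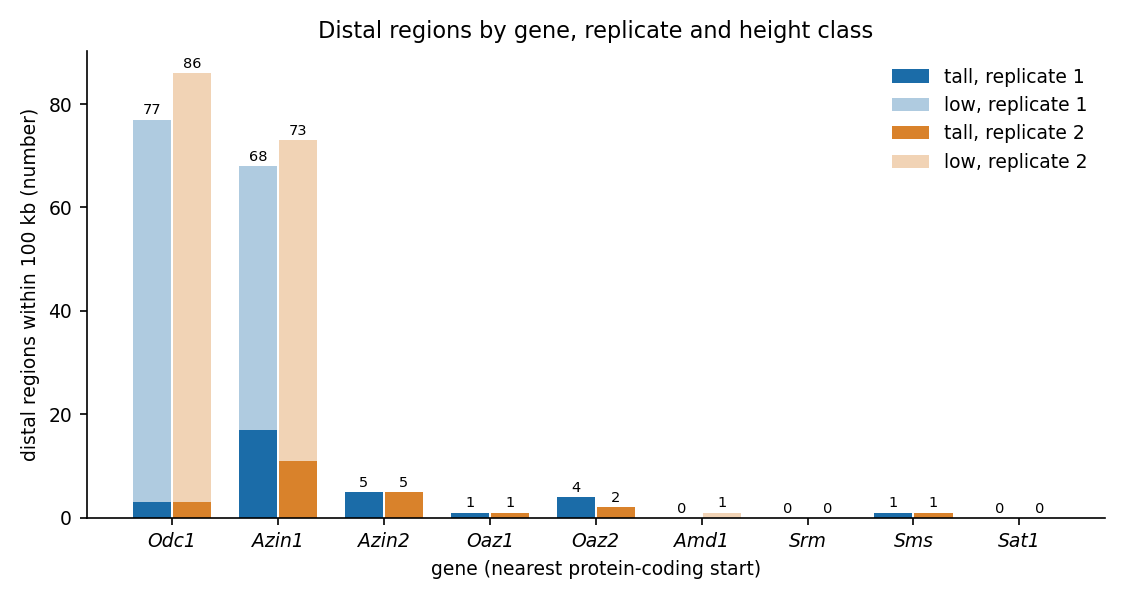
Number of distal regions of each gene in each replicate, with tall regions in full colour at the bottom of the bar and low regions pale above. Odc1 has 77 and 86 regions, nearly all low, Azin1 has 68 and 73 with 17 and 11 tall, and no other member has more than 5.

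Odc1 had 77 distal regions in replicate 1 and 86 in replicate 2, and all but 3 in each were low (96.1% and 96.5%). Over the distal regions of all genes 48.4% and 69.9% were low. The heights of the Odc1 regions ran from 0.0512 to 0.549 with a median of 0.149 in replicate 1, and from 0.0542 to 0.530 with a median of 0.150 in replicate 2. The nearest values on either side of the low point were 0.359 and 0.461 in replicate 1, and 0.434 and 0.509 in replicate 2. Of the 74 low regions in replicate 1, 68 had a region of replicate 2 (91.9%), and of the 83 in replicate 2, 68 had one in replicate 1 (81.9%). Low distal regions of all genes were shared at 27.6% and 17.9%, but an overlap of 1 bp made a region shared, and regions cover 62.5% and 63.0% of the Odc1 blocks described next. The part of that density in the sharing was not tested. Unlike the promoters, the shared regions of Odc1 were not lower in replicate 2 on the median (log2 ratio 0.10, SD 0.53 over 71 regions). Low distal regions of all genes, shared or not, also had nearly equal median heights, of 0.172 in replicate 1 and 0.171 in replicate 2. Heights of the shared Odc1 regions had a Pearson correlation of 0.72 across regions that lie side by side and share both libraries.

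The low regions of Odc1 lay in 2 dense blocks upstream of the gene, in sequence with no annotated gene. A dense block was defined, after the data were seen, as at least 10 regions each at most 2 kb from the next. The farther block (chr12:17474899-17497840) spanned 22.9 kb, lay 47.0 to 69.9 kb upstream of Odc1 and held 44 regions, 38 of them shared, at a median spacing of 501 bp. The nearer block (chr12:17502841-17524657) spanned 21.8 kb, lay 20.1 to 42.0 kb upstream and held 47 regions, 32 of them shared, at a spacing of 422.5 bp. The median region was 32 steps high in replicate 1 in each block, and 36 and 35 steps in replicate 2.

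**Figure D3:**
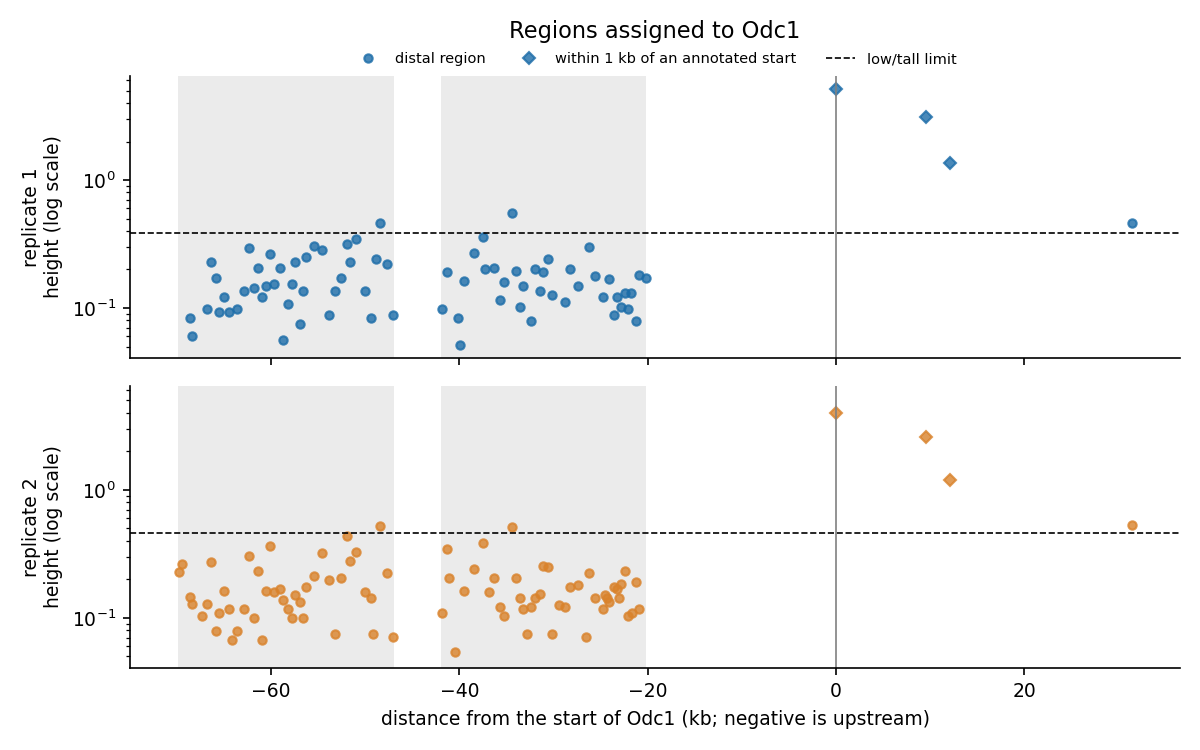
Height (log axis) of each region assigned to Odc1 against its distance from the start of the gene in kb, for replicate 1 (upper) and replicate 2 (lower); grey bands are the dense blocks and the dashed line is the limit between low and tall. The blocks hold regions with medians near 0.15, and 2 tall regions lie 9.5 and 12.1 kb downstream of the start.

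The block edges were sharp in the base-by-base list of false discovery rates that the authors deposited. Bases with a rate of up to 0.05 made up 77.2% of the farther block and 80.4% of the nearer block in replicate 1, and 76.2% and 77.3% in replicate 2. In the 50 kb beyond the farther block that share was 0.008% in replicate 1 and 0 in replicate 2, and no peak was called there in either. Across the 19136 bp between the nearer block and the 1 kb before Odc1, no base was listed and no peak called. Most of the sequence in these empty stretches was unique: 85.6% of 31-base stretches in the flank and 93.3% of those before the gene occur once in the genome, against 92.5% and 83.9% in the blocks. The 5000 bp between the blocks were 100% repeat-masked, only 4.25% of their 31-base stretches occur once, and they held no peak.

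Most distal regions of Odc1 held no footprint: 28 of 77 had at least 1 in replicate 1 and 34 of 86 in replicate 2. The blocks held 22.2 and 18.8 footprints per 10 kb in replicate 1, and 17.9 and 16.0 in replicate 2. Of those in replicate 1, 27.5% and 26.8% overlapped a footprint of replicate 2, below the 38.9% over the whole genome and the 87.5% in the Odc1 promoter peak.

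The regions of Odc1 that were tall in both replicates stood at -48.5 kb from its start (0.461 and 0.521), at -34.5 kb (0.549 and 0.509) and at 31.5 kb, in an intron of the noncoding gene Gm36862 (0.466 and 0.530). The first and second are in the dense blocks. Taller than any of these were 2 regions 3′ of Odc1, 9.5 and 12.1 kb from its start, whose sequences are shown above as downstream 1 and 2. They measured 3.10 and 2.60 for the first and 1.37 and 1.18 for the second. Both lie in an intron of Gm36862, 548 and 758 bp from an annotated start of that gene, so the distal rule leaves them out. The first held 6 footprints in replicate 1 and 5 in replicate 2, and in the stretch common to both replicates, which is the one printed, all 4 of replicate 1 overlapped one of replicate 2.

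Azin1 had 68 and 73 distal regions, of which 51 (75%) and 62 (84.9%) were low. The nearest values on either side of the low point were 0.377 and 0.391 in replicate 1, and 0.4586 and 0.492 in replicate 2. The value of 0.4586 lay only just below the low point of 0.459. Of all 91 regions, 89 lay downstream of its start, beyond the 3′ end of the gene. By place 74 were intergenic, and 15 lay in introns and 2 in exons of genes other than Azin1. Unlike Odc1, it had very tall regions among them. The tallest, 45.4 kb from the start and shown above, measured 2.93 and 2.34, and the next, 48.6 kb from the start, measured 2.30 and 1.67. The other 8 that were tall in both replicates ran from 0.438 to 0.875 in replicate 1 and from 0.492 to 1.08 in replicate 2.

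Dense blocks held most of the Azin1 regions too, but their replicates differed by block. The block farthest from the gene (chr15:38404621-38442840, 76.4 to 114.6 kb from the start) held 58 regions, 34 shared and 12 in each replicate alone. Its distal regions over 100 kb from that start lie within 100 kb of another annotated start of Azin1. Klf10 starts 219 kb from Azin1 on that side. The far end of the block is nearer to the Klf10 start than to the Azin1 promoter peak. The middle block (chr15:38450161-38460300, 59.0 to 69.1 kb) held 15 regions, all of them in replicate 2 and 3 in replicate 1. Bases with a listed rate made up 7.0% of the middle block in replicate 1 and 72.8% in replicate 2. The block nearest the gene (chr15:38465770-38477580, 41.7 to 53.5 kb) went the other way, with 18 regions in replicate 1 and 11 in replicate 2, and 80.2% against 53.1% of bases listed. The 3 regions of the middle block that both replicates shared were all tall in replicate 1, at 0.484 to 0.875. The tallest of them lies in an intron of the noncoding gene G930009F23Rik.

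**Figure D4:**
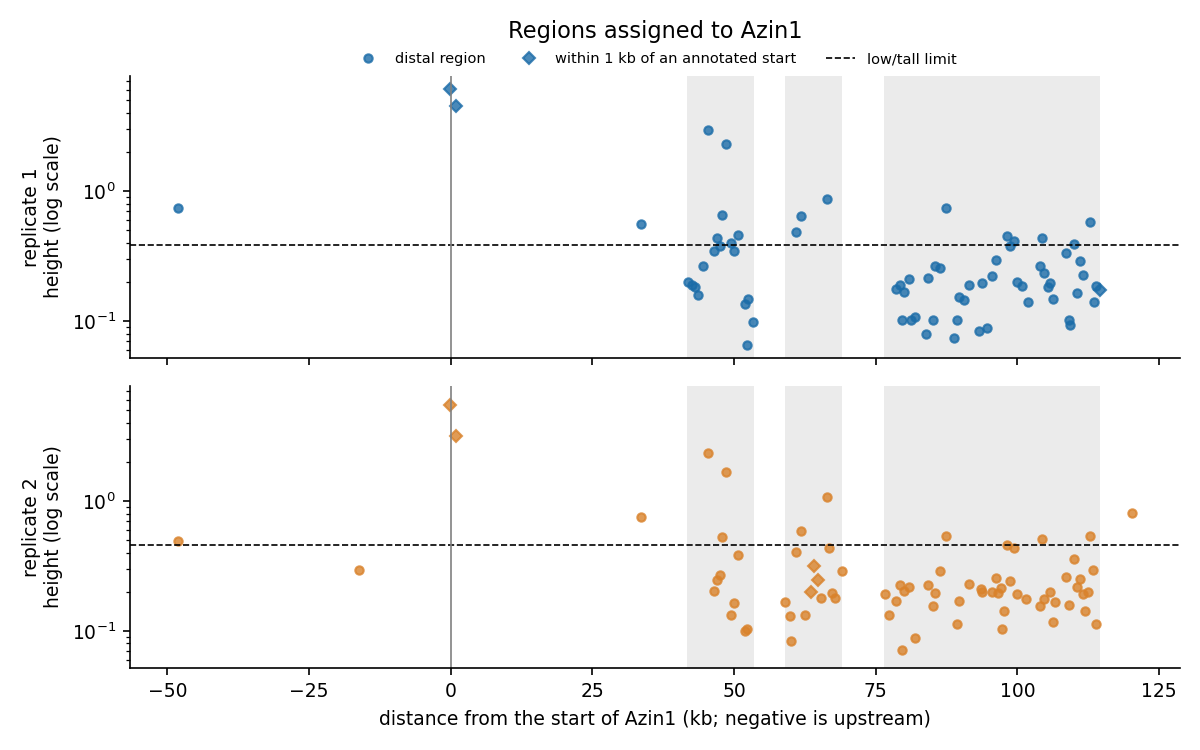
Height (log axis) of each region assigned to Azin1 against its distance from the start of the gene in kb, for replicate 1 (upper) and replicate 2 (lower); grey bands are the dense blocks and the dashed line is the limit between low and tall. The middle band holds 3 regions in replicate 1 and 15 in replicate 2, and the tallest distal regions, at 2.93 and 2.30 in replicate 1, lie in the band nearest the gene.

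**Figure D5:**
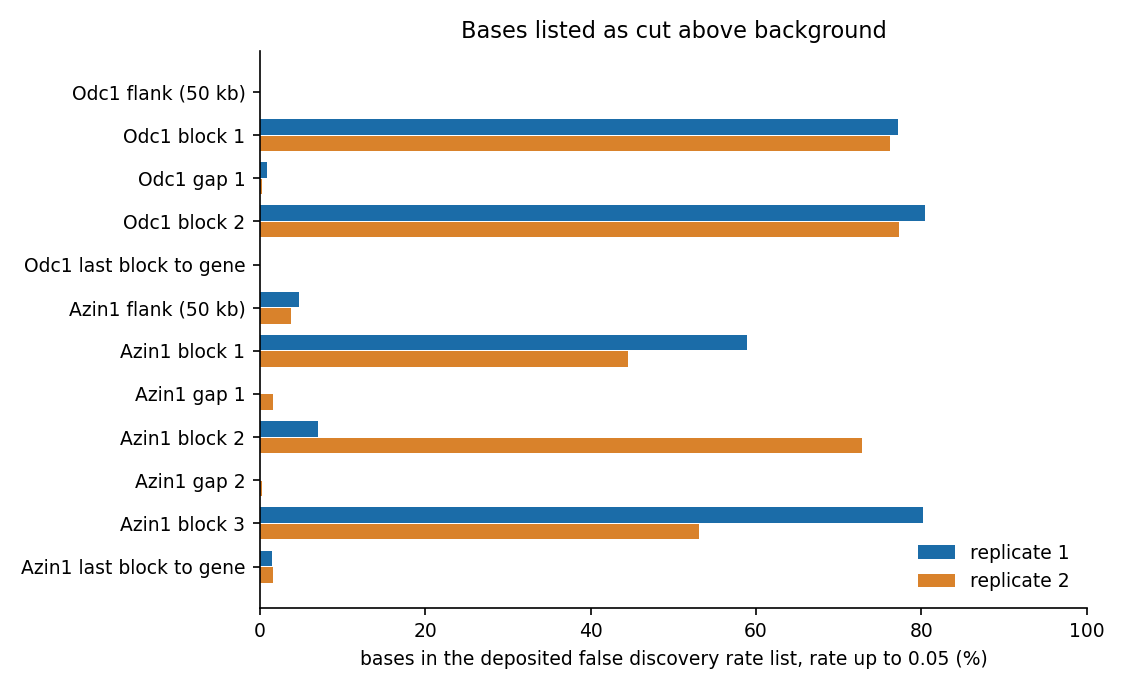
Share of bases (%, linear axis from 0 to 100) that the deposited lists give with a false discovery rate of up to 0.05, by stretch around Odc1 and Azin1 and by replicate. Both Odc1 blocks are near 80% in each replicate with stretches near 0 on either side, and the middle Azin1 block has 7.0% in replicate 1 and 72.8% in replicate 2.

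Blocks of this kind were not limited to the family. Over all genes 1941 blocks met the rule, at 1465 genes (6.68%), and held 37.7% of the 97961 regions considered. Regions inside blocks had median heights of 0.163 and 0.154, against 0.573 and 0.438 outside, and 91.5% and 96.4% of them were low, against 30.3% and 52.2% outside.

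The other 7 genes had few distal regions, and those were nearly all tall. Their 8 shared regions were tall in both replicates. Azin2 had 4 of them, the tallest by mean upstream at -8.85 kb, with heights of 1.78 and 1.31, and the next beyond its 3′ end at 37.3 kb, with 1.49 and 1.45. Oaz2 had 2, the taller upstream at -3.63 kb with heights of 0.973 and 0.792. Oaz1 had 1, 4.73 kb from its start, at 0.629 and 0.625, and Sms had 1 in an intron, 37.7 kb from its start, at 0.913 and 0.821. The Sms region was thus taller than the Sms promoter in both replicates. Amd1, with the tallest promoter, had no shared distal region and a single low one in replicate 2 (0.404), and Srm and Sat1 had none. A region in an intron of Amd1, 1.275 kb inside the gene, was tall in both replicates (1.98 and 1.34). It lies 665 bp from an annotated start, so the promoter and distal rules both leave it out.

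The room around the genes differed. The starts of the neighbouring protein-coding genes lay 342 kb apart around Odc1 (Nol10 and Hpcal1) and 361 kb apart around Azin1 (Klf10 and Atp6v1c1). Around 6 other members they lay 198 kb (Oaz2, between Rbpms2 and Zfp609), 154 kb (Sms, Phex and Yy2), 134 kb (Sat1, Cldn34b2 and Acot9), 81.5 kb (Amd1, Gtf3c6 and Cdk19), 44.1 kb (Srm, Exosc10 and Masp2) and 30.5 kb (Oaz1, Jsrp1 and Lingo3) apart. Per 100 kb of that full distance Odc1 had 20.7 shared distal regions and Azin1 13.8. Part of the distance lies nearer to the neighbours' starts, where a region would go to them. These densities are thus lower than over the stretch that each gene could take. The neighbours of Odc1 had 1 (Nol10) and 2 (Hpcal1) shared distal regions, and their promoters measured 2.79 and 1.86 and 5.01 and 3.70. The neighbours of Azin1 had 8 (Klf10) and 3 (Atp6v1c1) shared distal regions, all of them tall in both replicates.

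The counts at Odc1 and Azin1 depend on how regions are given to genes. When noncoding genes could also take a region, 43 shared regions went to Odc1 and 0 to Azin1. Within 50 kb instead of 100 kb, Odc1 had 37 and Azin1 16.

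Genes with the most alike profile were sought over the log2 promoter height and log2(1 + distal count) of both replicates. For Odc1 they were C2cd5 (distance 0.28), Insig1 (0.49) and Sik1 (0.52), and for Azin1 Insig1 (0.38), Sik1 (0.41) and Ctnnbl1 (0.56). Insig1 had 85 and 68 distal regions with 37 shared, and Sik1 59 and 74 with 53 shared. C2cd5 had promoter heights of 4.50 and 3.77 and 69 and 81 distal regions, of which 0 were shared, a count the likeness did not use.

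Of 25 other genes of polyamine metabolism, transport, use and control, 20 had a promoter peak in both replicates, all 20 of them tall in both, and 5 had none in either. The tallest were Eif5a (9.72 and 8.75), the translation factor that carries the spermidine-derived residue hypusine, Dohh (7.41 and 5.27), which completes that residue, and Max (5.81 and 3.97), the partner of Myc. Those without a promoter peak included Amd2 and the arginine and agmatine enzymes Arg1 and Agmat. Myc and Mycn, known activators of Odc1 transcription and named here after their values were seen, had lower promoters, at 1.51 and 1.74 and at 0.782 and 0.913, and both were higher in replicate 2.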

How the data were processed

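Peak lists, base-by-base rates and footprints of 2 bladder DNase-seq samples were used, all made from the filtered alignments of the same sample on assembly mm10, per the deposited descriptions of the files. Not given in the sources used here are the aligner, the callers, their versions and the total depth. Peak height is the signal that the authors deposited, on a scale that they do not state. The p-value column of the deposited rate lists is a false discovery rate from 0 to 0.05, and that of the deposited footprint lists is 0.01 throughout.

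Overlapping peaks (1 bp) of the replicates were merged into regions, whose height in a replicate is that of the tallest peak there. A region belongs to the protein-coding gene with the nearest start. Intervals of heights are exact Poisson intervals (95%) of their steps and cover counting error only. Uniqueness was taken from counts of 31-base stretches on both strands. Peaks reached beyond no chromosome end of GRCm38 (0 of 21). Python 3.11.15, numpy 2.4.6, pandas 2.3.3, scipy 1.17.1, numba 0.67.0 and matplotlib 3.10.9 were used, and gene assignment was tested on simulated data. With 1 group of 2 replicates no test was run. Alternatives were the stricter lists, other windows, distances, overlaps and gene types, and each replicate alone.

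The members, lists and motifs were chosen with earlier results of these data known. Named genes were all members, their nearest protein-coding neighbours, the 3 tallest and the closed genes of the wider list, and the 3 most alike genes of Odc1 and of Azin1. Some of the genes that this rule names are not reported here.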

Additional observations from a re-analysis of the deposited data

How the results depend on the processing

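The count of members with a promoter peak in both replicates, and of those with a footprint there, was 9 under every alternative run. Leaving out a replicate or widening the window could not lower that count. Only the stricter lists, the tall peaks and the peak centre rule could have done so. The 129 shared distal regions of the family fell to 61 within 50 kb and to 47 when the nearest gene of any type took the region, and ranged from 156 to 169 with 1 replicate left out. The 21 regions tall in both replicates fell to 12 in the stricter lists and to 6 with the nearest gene of any type, and ranged from 23 to 31 with 1 replicate left out. Counts of single members moved beyond 1.5 times in 11 of 63 recomputed values, and promoter heights moved by more than the SD of the replicates in 0 of 18. For heights the alternatives were the stricter lists and the wider window, and both returned unchanged values. That count is therefore no measure of how heights depend on other processing. No paired analysis was possible because the replicates form a single group. The median region of the Odc1 blocks holds 32 to 36 steps, and total depth is not known.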
